A study of Rattus norvegicus with 18 samples.

Results

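The proteasome genes described here were the genes of a rat expression array whose name in the scanner files begins with Psm, then a letter from a to g, then a digit. Names were read without regard to case or to a "_predicted" ending. A gene entered if its probe gave Cy5 signal clear of background (the scanner's own mark) on 5 or more of 18 arrays, and the brightest probe by mean Cy5 signal stood for the gene. The rule found 49 probes of 41 genes, out of 21591 genes measured, and all 41 genes were well above background on all 18 arrays with no saturated spot and no missing value. By role they were 14 subunits of the core particle, 3 inducible catalytic subunits of the immunoproteasome, 16 subunits of the regulatory particle, 4 activators, 3 assembly factors and 1 gene, Psmc3ip, that shares the name but encodes a recombination partner of other proteins and no proteasome subunit.

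The RNA came from peripheral blood mononuclear cells (PBMC, the lymphocytes and monocytes of blood) of 18 male Wistar rats, 6 per diet, with 1 animal per array. From an age of 2 months, the rats ate a purified diet for 4 months: a low-fat diet (LFD, the control, eaten freely, with 10% of energy from fat, 20% from protein and 70% from carbohydrate), a high-fat diet (HFD, 60% fat, 20% protein and 20% carbohydrate) or a high-protein diet (HPD, 10% fat, 45% protein, mostly casein, and 45% carbohydrate). The HFD and HPD were given in amounts equal in energy to the controls' intake, and all rats were fasted for 14 h. Each animal's RNA carried Cy5 and was hybridised with a Cy3-labelled reference that pooled RNA from the study's own samples. The value used throughout is the log2 ratio of the animal to the pool, so 0 means equal to the pool and 1 log2 unit is 2-fold. One array is titled as an HFD animal while its other labels say HPD. It was counted as HPD (HPD 7), and its tests were repeated with it counted as HFD.

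The proteasome is the protease that degrades proteins tagged with ubiquitin. Its core is a barrel of alpha rings, which gate the entry, around beta rings, which hold the catalytic subunits Psmb5, Psmb6 and Psmb7. The regulatory particle caps the barrel, binds ubiquitin and unfolds the substrate with a ring of ATPases. Lymphocytes and monocytes can replace the constitutive catalytic subunits by Psmb8, Psmb9 and Psmb10, which interferon induces, and the resulting immunoproteasome makes peptides suited to MHC class I.

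Markers of the labelled cells were among the genes that passed the filter. Of those measured, 14 of 14 T cell, 7 of 7 B cell, 9 of 10 natural killer cell and 10 of 11 monocyte markers were well above background on all arrays. So were 14 of 15 erythroid and 8 of 9 platelet markers, cell types that a mononuclear preparation can carry over. Of all genes that passed the filter, 76.9% were well above background on all arrays. The lists held 15 T cell, 10 B cell, 10 natural killer cell, 12 monocyte, 18 erythroid and 13 platelet markers before the filter. For dendritic cells 2 of 3 measured markers (8 listed) were well above, and for neutrophils 3 of 5 (11 listed). Over the 18 arrays, 53.1% to 63.4% of probes were well above background. LFD 2 and LFD 6 stood apart, with a median absolute deviation of the log2 ratio over genes of 0.57 and 0.59 against 0.27 to 0.40 on the other 16 arrays, and the values that moved most without them are given both ways. The number of arrays limits the precision, and nothing in an RNA ratio of mixed cells tells fewer cells of a type from less RNA per cell.

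No proteasome gene passed the test between diets. In limma's test across all 21591 genes with Benjamini-Hochberg adjustment, 0 of 41 passed an adjusted p of 0.05 for HFD against LFD, HPD against LFD or HPD against HFD, and 0% of all genes passed in each. At an unadjusted p under 0.05, 0 of 41 were below it in each comparison, against 2.12%, 2.96% and 3.11% of all genes. The F test over the 3 diets passed 0 of 41 genes at either level, where 2.42% of all genes had an unadjusted p under 0.05. The smallest adjusted p of any member was 0.999898 for HFD against LFD, 0.999897 for HPD against LFD and 0.994131 for HPD against HFD.

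The intervals show how large a diet difference these arrays could have missed. The 95% limma interval lay wholly within 0.32 log2 units of 0 for 28 of 41 members between HFD and LFD, 30 between HPD and LFD and 27 between HPD and HFD, while 13.9%, 13.2% and 12.5% of all genes met that bound. A bound of 1.5-fold (0.58 log2 units) held 39 of 41 members in each comparison, against 52.9%, 52% and 50.3% of all genes. The exceptions at 1.5-fold were Psma2 and Psme4 in all 3 comparisons, whose values are given with their groups.

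**Figure D1:**
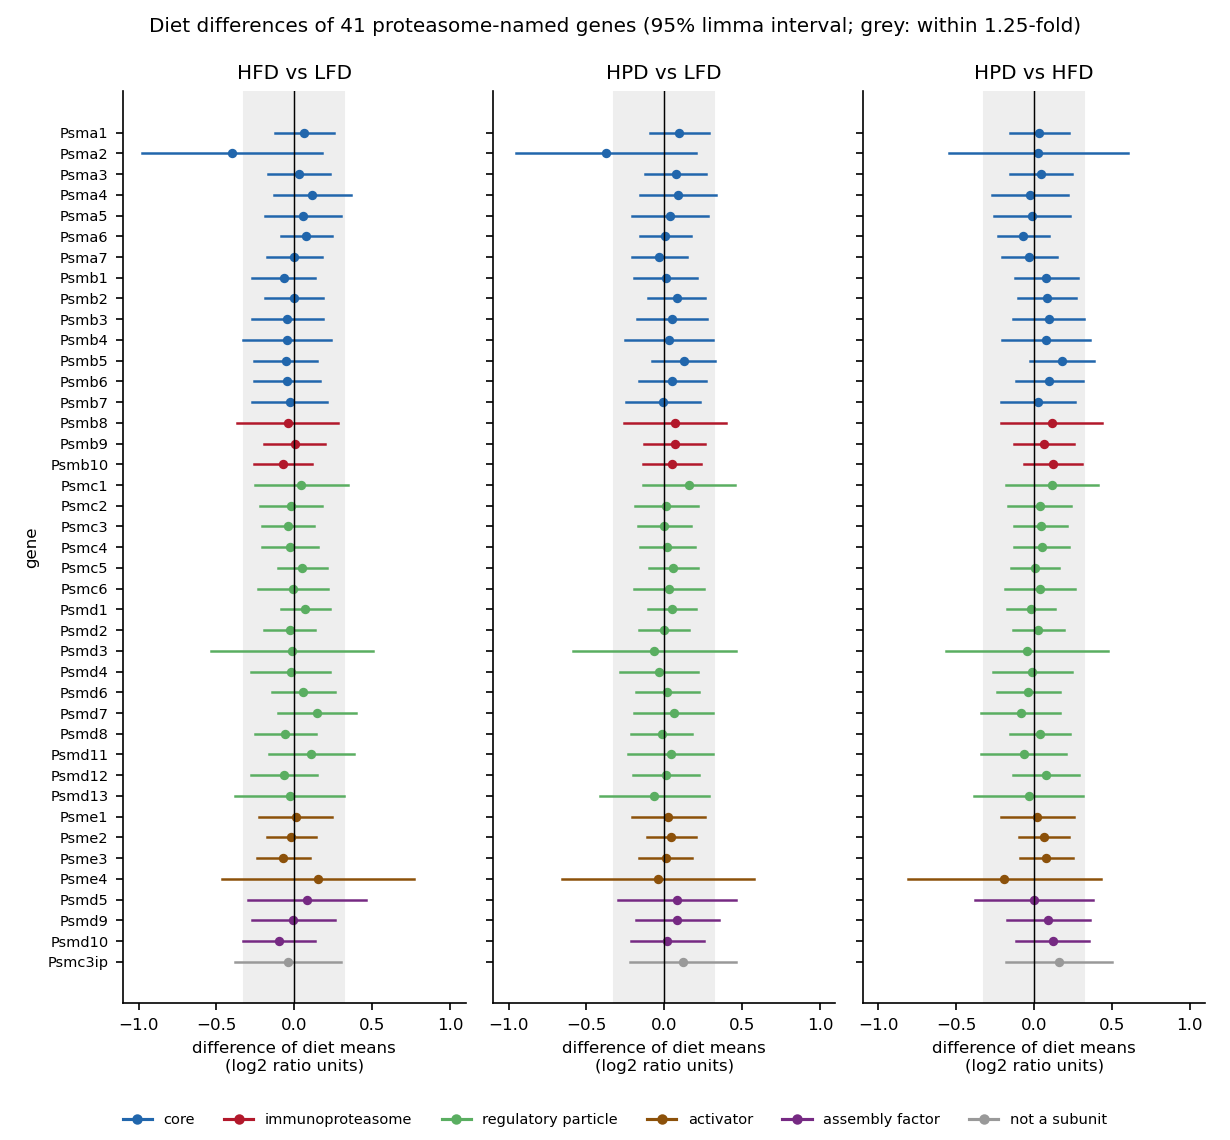
Difference of diet means in log2 ratio units (x axis) for each of the 41 genes (y axis) in the 3 comparisons; points are differences, bars 95% limma intervals, colours roles, and the grey band marks 0.32 log2 units in either direction. Every bar crosses 0, and the widest bars belong to Psma2, Psmd3 and Psme4.

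Directions were mixed and small. The median difference over the 41 members was -0.02 between HFD and LFD, with 15 genes higher and 26 lower, where all genes had a median of 0.00073 and 50.2% were higher. Between HPD and LFD the members' median was 0.03, with 32 of 41 higher, against 0.02 and 55% over all genes. Between HPD and HFD it was 0.04, with 28 of 41 higher, against 0.02 and 54.5%. The counts behind these directions were not stable. Over 14 alternatives, the median for HFD against LFD ran from -0.10 to 0.0016 and turned sign in 1. The median stayed positive for HPD against LFD (0.0041 to 0.081) and for HPD against HFD (0.019 to 0.16). The count for HPD against LFD was 25 of 41 without LFD 2, 26 without LFD 6, 23 without both and 22 without the 4 arrays of slide 1. With each array centred on its median, 19, 31 and 26 of 41 members were higher in the 3 comparisons, and with slide as a fixed block 21, 32 and 31. The authors' deposited table, taken to be log2 although its log base is not settled, was fitted the same way. In it, 5, 33 and 37 of 41 members were higher in the 3 comparisons, and 0 members were called. The medians were -0.10, 0.08 and 0.16 against -0.03, 0.04 and 0.06 over all genes. The share of all genes that were higher was not counted under any of these alternatives, so the members' counts have no background there.

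Among the constitutive catalytic subunits, Psmb5 (chymotrypsin-like activity) had the smallest p of all members. Its log2 ratio ran from -0.23 to -0.08 in HFD (median -0.15), from -0.06 to 0.16 in HPD (median 0.01) and from -0.43 to 0.10 in LFD (median -0.04). All 6 HPD animals lay above all 6 HFD animals, and the LFD animals spanned both. Psmb5 was the only member without overlap between HPD and HFD, 1 of 41 (2.44%) against 0.232% of all genes, and in the other comparisons 0 of 41 were free of overlap, against 0.0926% and 0.088%. HPD exceeded HFD by 0.18 ± 0.10 (standard error; 95% interval -0.02 to 0.38), which did not pass limma's test (unadjusted p = 0.0797, adjusted p = 0.994). Within slides, the difference was 0.16 on slide 2 (3 HPD and 1 HFD arrays) and 0.08 on slide 3 (1 HPD and 2 HFD arrays). It was 0.11 with slide as a fixed block and 0.29 in the authors' deposited table, not called in either.

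Psmb6 (caspase-like activity) ran from -0.25 to 0.33 in LFD (median 0.16), -0.02 to 0.14 in HFD (median 0.04) and 0.03 to 0.33 in HPD (median 0.10). The 3 diets overlapped, and HPD minus HFD was 0.10 ± 0.10. Psmb7 (trypsin-like activity) ran from -0.40 to 0.02 in LFD, -0.49 to -0.02 in HFD and -0.37 to -0.04 in HPD, with medians of -0.20, -0.16 and -0.18. Its diets overlapped almost wholly, and HPD minus HFD was 0.02 ± 0.11.

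The inducible subunits overlapped between diets as well. Psmb8, which takes the place of Psmb5, ran from -0.72 to 0.40 in LFD (median 0.07), -0.21 to 0.06 in HFD (median -0.05) and -0.20 to 0.22 in HPD (median 0.04). Its LFD extremes were LFD 6 at the bottom and LFD 2 at the top, and HPD minus HFD was 0.11 ± 0.15 with an adjusted p of 0.994 in limma. Psmb9, which replaces Psmb6, ran from -0.19 to 0.13 in LFD (median -0.02), -0.15 to 0.10 in HFD (median -0.04) and -0.18 to 0.16 in HPD (median 0.09). Psmb10, which replaces Psmb7, ran from -0.10 to 0.21 in LFD (median 0.00), -0.15 to 0.09 in HFD (median -0.05) and -0.09 to 0.20 in HPD (median 0.12). HPD minus HFD was 0.06 ± 0.09 for Psmb9 and 0.12 ± 0.09 for Psmb10, with 95% intervals of -0.13 to 0.26 and -0.06 to 0.31. In the authors' deposited table the same difference was 0.24 for Psmb8, 0.26 for Psmb9 and 0.32 for Psmb10, with unadjusted limma p-values of 0.0414, 0.0494 and 0.0258 and an adjusted p of 0.893 for each, so the call did not change. The constitutive Psmb5, Psmb6 and Psmb7 were at 0.29, 0.24 and 0.11 in that table, where the median over all genes was 0.06.

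**Figure D2:**
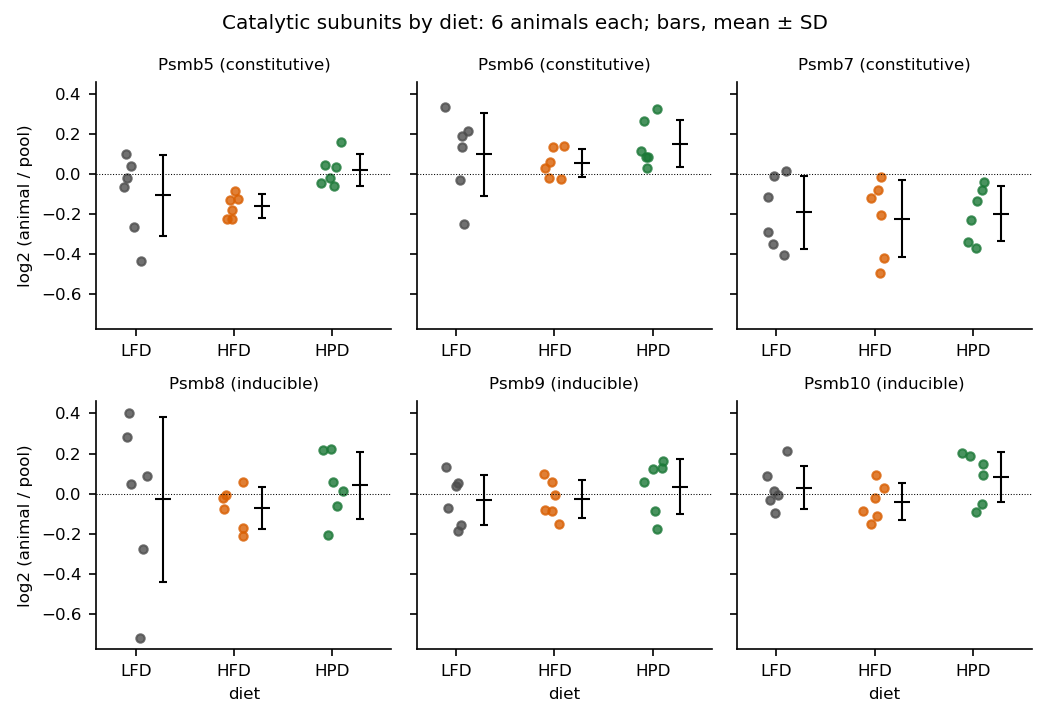
Log2 ratio of animal to pool (y axis) of the constitutive catalytic subunits (top row) and the inducible ones that replace them (bottom row) by diet (x axis); points are 6 animals per diet, bars the mean ± SD. Psmb5 is the only panel where HPD points lie wholly above HFD points, and the LFD group of Psmb8 runs from LFD 6 at the bottom to LFD 2 at the top.

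The difference between an inducible subunit and the subunit it replaces, taken within each animal, had diet means closer together than their spread within LFD. Psmb8 minus Psmb5 averaged 0.08 ± 0.58 (SD, n = 6) in LFD, 0.09 ± 0.11 in HFD and 0.02 ± 0.11 in HPD. Psmb9 minus Psmb6 averaged -0.13 ± 0.32, -0.08 ± 0.11 and -0.11 ± 0.19, and Psmb10 minus Psmb7 averaged 0.22 ± 0.26, 0.18 ± 0.26 and 0.28 ± 0.18. Without LFD 2 and LFD 6, the LFD values of the 3 pairs were 0.11 ± 0.32, -0.22 ± 0.25 and 0.10 ± 0.20 (SD, n = 4). These are differences of log2 ratios to the pool, so they compare animals and say nothing of how much of each subunit the cells held.

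Some catalytic subunits varied together from array to array. Of 9 gene pairs examined over 18 arrays, 3 passed after Benjamini-Hochberg adjustment over the 9. The test was against an r of 0. The values were correlated with neither slide nor diet taken out, and the part of slide in these correlations was not tested. For scale, all 820 pairs of members had a median r of 0.08 (quartiles -0.27 and 0.39). The 91 pairs of core subunits had a median r of 0.31 (quartiles -0.05 and 0.58). Psmb9 and Psmb10 had a Pearson r of 0.72 (permutation p = 0.00104, adjusted p = 0.00312) and a Spearman rho of 0.73 (permutation p = 0.00083, adjusted p = 0.00373). Their r was 0.70 without the 2 arrays farthest from the median, 0.70 without LFD 2 and LFD 6, and 0.69 without slide 1. Psmb6 and Psmb7 had r = 0.73 (permutation p = 0.00041, adjusted p = 0.00184) and rho = 0.80 (permutation p = 0.00011, adjusted p = 0.00099), with r of 0.69, 0.76 and 0.70 in the same reduced sets. On slides 1 to 5, Psmb6 averaged -0.08, 0.06, 0.15, 0.25 and 0.14, and Psmb7 averaged -0.35, -0.34, -0.09, -0.05 and -0.18. Psmb5 and Psmb6 had r = 0.76 (permutation p = 0.00032, adjusted p = 0.00184) and rho = 0.64 (permutation p = 0.00487, adjusted p = 0.0146), but r was 0.55 without the 2 farthest arrays and 0.41 without slide 1, so it rests in part on those arrays.

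The other 6 pairs did not pass. Psmb8 had r = 0.43 with Psmb9 (permutation p = 0.0686, adjusted p = 0.104) and r = 0.37 with Psmb10 (permutation p = 0.137, adjusted p = 0.177), and these were 0.20 and 0.23 without LFD 2 and LFD 6. The difference between these correlations and that of Psmb9 with Psmb10 was not tested. Psmb5 with Psmb7 (r = 0.31, permutation p = 0.213, adjusted p = 0.213), Psme1 with Psme2 (r = 0.45, permutation p = 0.0612, adjusted p = 0.104), Psmb9 with the peptide transporter gene Tap1 (r = 0.34, permutation p = 0.168, adjusted p = 0.19) and Psmb8 with Tap2 (r = -0.44, permutation p = 0.0693, adjusted p = 0.104) had adjusted p-values over 0.05 as well. The last r was 0.18 without LFD 2 and LFD 6. All of these arrays share the reference pool.

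The promoters of the inducible and constitutive catalytic subunits are shown because these genes are known to answer to different signals: interferon acts through interferon regulatory factors (a pair of GAAA half-sites in 1 orientation, 2 bases apart), and Nfe2l1, which raises proteasome genes when proteasome activity falls, acts through the antioxidant response element (core TGACNNNGC). Each is the RefSeq promoter on GRCr8, 250 bases before to 50 after the start, written 5′ to 3′ on the gene's strand, with capitals on those motifs and on CCAAT and GGGCGG, both strands searched.
Psmb8, chr20:4656982-4657281, minus strand: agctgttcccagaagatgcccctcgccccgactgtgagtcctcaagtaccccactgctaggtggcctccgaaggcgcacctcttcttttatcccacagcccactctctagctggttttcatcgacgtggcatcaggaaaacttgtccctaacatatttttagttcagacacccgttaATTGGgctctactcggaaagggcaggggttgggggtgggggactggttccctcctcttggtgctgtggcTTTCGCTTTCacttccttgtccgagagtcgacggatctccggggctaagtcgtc
Psmb9, chr20:4668750-4669049, plus strand: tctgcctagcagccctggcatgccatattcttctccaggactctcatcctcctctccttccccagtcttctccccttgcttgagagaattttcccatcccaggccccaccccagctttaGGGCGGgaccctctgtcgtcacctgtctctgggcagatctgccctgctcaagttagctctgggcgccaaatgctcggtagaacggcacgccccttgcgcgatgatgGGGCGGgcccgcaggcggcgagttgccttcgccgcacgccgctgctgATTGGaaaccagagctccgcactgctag
Psmb10, chr19:50743243-50743542, minus strand: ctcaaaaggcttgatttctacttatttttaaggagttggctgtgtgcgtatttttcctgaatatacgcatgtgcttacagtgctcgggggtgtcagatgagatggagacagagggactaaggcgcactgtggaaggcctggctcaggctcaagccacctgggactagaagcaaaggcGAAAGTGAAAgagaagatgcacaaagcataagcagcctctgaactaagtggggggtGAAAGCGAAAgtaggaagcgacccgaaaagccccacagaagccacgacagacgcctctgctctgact
Psmb5, chr15:32047330-32047629, minus strand: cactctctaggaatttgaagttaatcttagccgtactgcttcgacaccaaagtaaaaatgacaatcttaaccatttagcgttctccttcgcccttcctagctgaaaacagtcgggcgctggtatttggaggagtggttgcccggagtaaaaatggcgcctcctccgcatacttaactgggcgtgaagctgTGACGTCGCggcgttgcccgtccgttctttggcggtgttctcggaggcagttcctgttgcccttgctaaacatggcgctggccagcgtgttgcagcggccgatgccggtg
Psmb6, chr10:55737638-55737937, plus strand: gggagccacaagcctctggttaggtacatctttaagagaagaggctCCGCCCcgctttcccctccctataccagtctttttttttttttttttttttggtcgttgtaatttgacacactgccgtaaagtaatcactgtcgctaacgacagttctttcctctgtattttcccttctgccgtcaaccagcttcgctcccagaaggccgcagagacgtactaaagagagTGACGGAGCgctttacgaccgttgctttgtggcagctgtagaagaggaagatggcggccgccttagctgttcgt
Psmb7, chr3:42827421-42827720, minus strand: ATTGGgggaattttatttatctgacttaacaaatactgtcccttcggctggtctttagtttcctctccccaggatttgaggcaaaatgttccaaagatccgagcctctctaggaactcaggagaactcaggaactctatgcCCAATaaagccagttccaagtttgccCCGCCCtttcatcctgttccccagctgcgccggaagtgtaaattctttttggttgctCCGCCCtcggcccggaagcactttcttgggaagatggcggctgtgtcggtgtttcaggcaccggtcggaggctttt

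The letters of these promoters differ between the groups. Psmb8 and Psmb10 hold the interferon regulatory factor pair, Psmb8 1 copy across its start and Psmb10 2 copies before it, and the letters GAAAGCGAAA occur in both genes and in Psme2. Psmb5 and Psmb6 hold the antioxidant response core, TGACGTCGC and TGACGGAGC, and no copy of the interferon pair; Psmb9 and Psmb7 hold neither in this window. Promoters were matched for 38 of 41 members. The interferon pair was in 6 of these 38 (15.8%), namely Psma4, Psmb3, Psmb8, Psmb10, Psmd7 and Psme2, and in 3.92% of the 33469 promoters in the table. The antioxidant core was in 8 (21.1%) against 12.1%, CCAAT in 20 (52.6%) against 37.5% and GGGCGG in 27 (71.1%) against 33.1%. A match describes letters, not binding. Psmb9 and Psmb10, which varied together over the arrays, did not share the interferon pair in this window.

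In the alpha rings, 5 of 7 genes had a higher mean in HFD than in LFD and 5 of 7 in HPD than in LFD, and none was called. Psma2 had the largest differences from LFD of all members and also a wide spread. It ran from -0.53 to 0.66 in LFD (median 0.16), -1.11 to 0.25 in HFD (median -0.0013) and -0.81 to 0.21 in HPD (median -0.26). The lowest animals were HFD 3, HFD 2 at -1.07 and HPD 1, while 4 HFD animals lay between -0.01 and 0.25, so the diets overlapped. HFD minus LFD was -0.40 ± 0.27 (95% interval -0.98 to 0.18) and HPD minus LFD was -0.37 ± 0.27, with adjusted limma p-values of 0.999898 and 0.999897. HFD minus LFD was -0.64 without LFD 2 and LFD 6, with an unadjusted limma p of 0.0456 and an adjusted p of 0.898. It was -0.29 without slide 1 and -0.35 with slide as a fixed block. HPD minus LFD was -0.61, -0.38 and -0.19 in the same 3 settings.

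The other alpha subunits had smaller differences. Psma4 (SD 0.18 over the 18 animals) and Psma5 (0.17) varied more than the median member and the rest less. Psma1 exceeded LFD by 0.06 ± 0.09 in HFD and 0.10 ± 0.09 in HPD, and Psma4 by 0.12 ± 0.12 and 0.09 ± 0.12. Psma6 was 0.08 ± 0.08 higher in HFD than in LFD, and HPD minus HFD was -0.07 ± 0.08. For Psma7, HPD minus LFD was -0.03 ± 0.08, and the HFD and LFD means were both 0.07. In the beta rings, the structural subunits Psmb1, Psmb2, Psmb3 and Psmb4 had lower means in HFD than in LFD in 4 of 4 cases (-0.07 to -0.00081) and higher means in HPD than in HFD in 4 of 4 (0.08 to 0.09), each within its standard error of about 0.09 to 0.13. Psmb3 ran from -0.25 to 0.14 in HFD and -0.09 to 0.22 in HPD, and Psmb4 from -0.12 to 0.08 and -0.08 to 0.17, so the diets overlapped.

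In the regulatory particle, none of the 16 genes was called. The 6 ATPases, Psmc1 to Psmc6, unfold substrates, and their differences lay between -0.04 and 0.05 for HFD minus LFD, 0.00044 and 0.16 for HPD minus LFD and 0.0061 and 0.11 for HPD minus HFD. Psmc1 had the largest, 0.16 ± 0.14 for HPD minus LFD, and ran from -0.79 (LFD 2) to 0.25 in LFD (median -0.11), -0.25 to 0.00 in HFD (median -0.14) and -0.19 to 0.15 in HPD (median -0.04). The HPD and HFD animals lay inside the range of the LFD animals, and the difference was -0.04 without slide 1, which holds LFD 2. Psmc5 was the steadiest member, with all 18 animals between 0.0038 and 0.24.

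The 10 non-ATPase subunits of the base and lid that the naming rule found differed by -0.07 to 0.15 between HFD and LFD. Psmd1, the large scaffold of the base, was nearly as steady as Psmc5 (-0.18 to 0.0034 over 18 animals) and gave HFD minus LFD of 0.07 ± 0.07. Psmd7 gave the largest difference, 0.15 ± 0.12 (0.06 without LFD 2 and LFD 6), with -0.68 to 0.10 in LFD, -0.07 to 0.15 in HFD and -0.33 to 0.06 in HPD. Psmd3 ran from -1.55 to 0.59 in LFD but only from -0.24 to -0.03 in HFD and -0.47 to -0.07 in HPD, and HFD minus LFD was -0.01 ± 0.25 (-0.19 without LFD 2 and LFD 6, and 0.28 without slide 1). Psmd13 ran from -1.07 to 0.21 in LFD, -0.36 to -0.09 in HFD and -0.37 to -0.10 in HPD, and HFD minus LFD was -0.03 ± 0.17 (-0.16 without LFD 2 and LFD 6). The lowest value of Psmd3, Psmd7 and Psmd13 was LFD 6 in each case.

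Of the activators, Psme1 and Psme2 form the interferon-inducible cap that opens the core without ubiquitin, Psme3 forms its nuclear counterpart and Psme4 is a large single-chain cap. Psme1 differed by 0.01 ± 0.11 between HFD and LFD and by 0.03 ± 0.11 between HPD and LFD, and ran from -0.48 to 0.21 in LFD, -0.10 to 0.07 in HFD and -0.24 to 0.14 in HPD. Psme2 differed by -0.02 ± 0.08 and 0.05 ± 0.08 and stayed between -0.20 and 0.08 over all animals. Psme3 differed by -0.07 ± 0.08 and 0.01 ± 0.08, and HPD minus HFD was 0.08 ± 0.08. Psme4 ran from -0.70 to 1.00 in LFD (median -0.26), -0.15 to 0.64 in HFD (median 0.12) and -0.54 to 0.50 in HPD (median 0.11), and gave 0.15 ± 0.29 and -0.04 ± 0.29. With slide as a fixed block these were -0.08 and 0.04, and without slide 1 they were 0.47 and 0.44. The probes of Psme1, Psme2 and Psme3 each matched more than 1 RefSeq accession in the files, so close copies may add to their signal.

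The assembly factors Psmd5, Psmd9 and Psmd10, chaperones that help to build the base, were not called. Psmd5 ran from -0.44 to 0.49 in LFD, -0.17 to 0.49 in HFD and -0.41 to 0.30 in HPD, and Psmd10 from -0.10 to 0.46, -0.28 to 0.18 and -0.01 to 0.30. HPD minus HFD was -0.0025 ± 0.18 for Psmd5 and 0.12 ± 0.11 for Psmd10. Psmc3ip gave 0.12 ± 0.16 for HPD minus LFD and 0.16 ± 0.16 for HPD minus HFD. The naming rule passed over subunits that the files list under other names. The deubiquitinase Psmd14 gave 0.16 for HFD minus LFD and -0.25 for HPD minus HFD, and the core assembly chaperones Psmg1, Psmg2 and Psmg3 gave 0.08, 0.05 and 0.22 for HPD minus HFD, and none had an unadjusted limma p under 0.05.

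**Figure D3:**
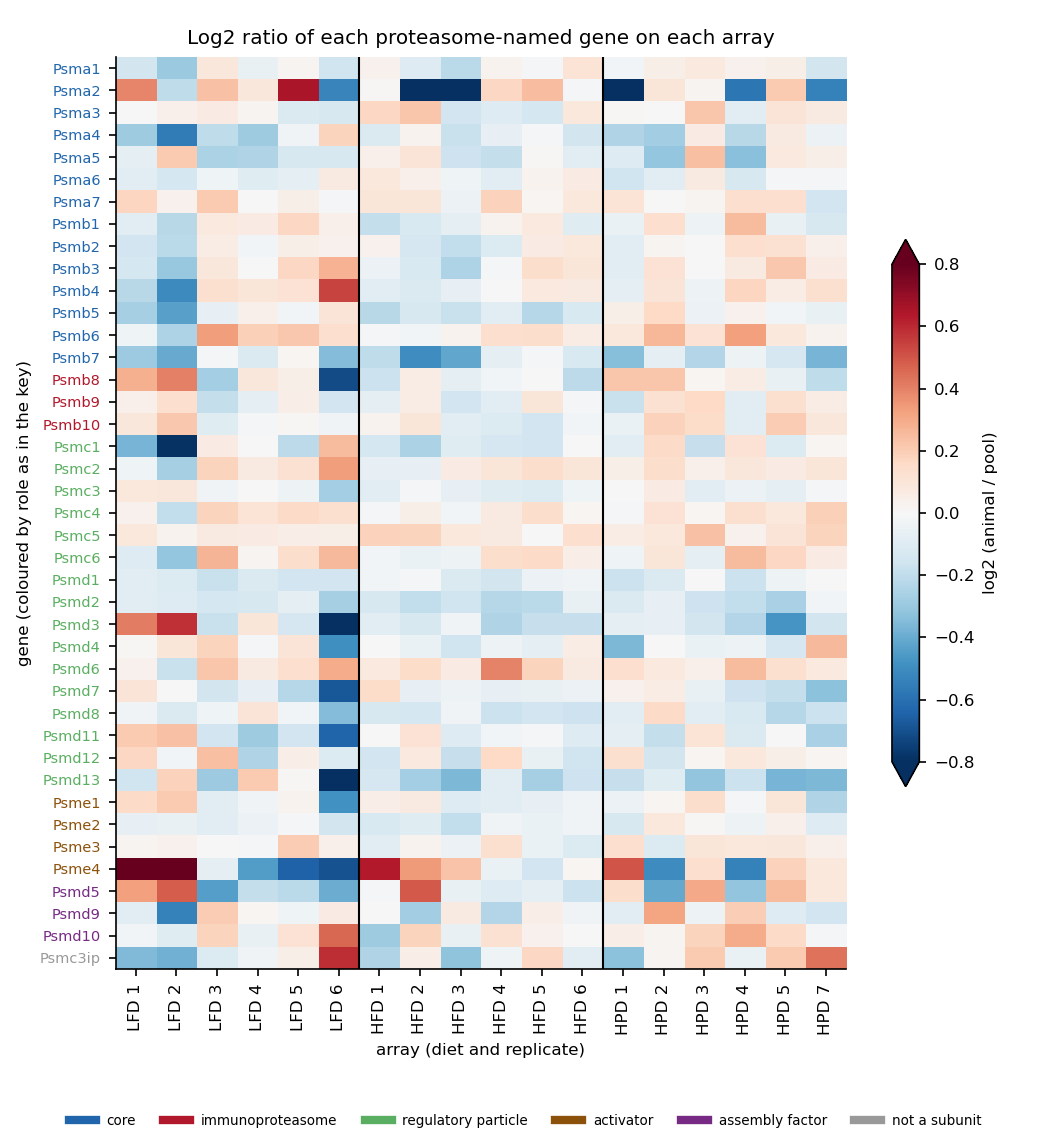
Log2 ratio of animal to pool (colour, saturated beyond 0.8 in either direction) of each gene (rows, labels coloured by role) on each of the 18 arrays (columns, grouped by diet). Most cells are pale; LFD 2 and LFD 6 are the strongest columns and often opposite in sign, and Psma2 and Psme4 are the strongest rows.

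Proteasome genes varied less between animals than most genes. The median SD over the 18 arrays was 0.14 for the 41 members, 0.36 for all genes and 0.22 for the 5398 brightest genes, which hold 37 of the 41; 38 members lay below the median of all genes and 33 below that of the 5398 brightest. Psmc5 (SD 0.06), Psmd1 (0.06) and Psme2 (0.07) varied least, at or below the 0.1 percentile of all genes, and Psme4 (0.51), Psma2 (0.51) and Psmd3 (0.42) varied most, at percentiles 72.7, 72.3 and 60.5. Brighter probes are also measured with less noise, and how far brightness accounts for the low spread was not tested beyond that set.

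The spread was widest in the control diet. The members' median SD was 0.20 within LFD, 0.09 within HFD and 0.12 within HPD, and 26 of 41 (63.4%) had their largest SD in LFD, as did 59.1% of all genes, for which the 3 values were 0.41, 0.28 and 0.30. Without LFD 2 and LFD 6 the LFD value was 0.11 for members and 0.29 for all genes. The lowest animal was LFD 2 for 15 members and LFD 6 for 11, and the highest was LFD 6 for 7 and LFD 2 for 6. The pair lay on opposite sides of the other arrays' median for 31 of 41 members (75.6%) and for 72.4% of all genes. The log2 ratios of LFD 2 and LFD 6 over all genes had a Pearson r of -0.48, a description across genes, which are not independent.

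The values of these 2 arrays differed with the position of the probe along the gene. In 6 members with probes at least 300 bases apart by the files' rn4 positions, the probe nearest the 3′ end was set against the one nearest the 5′ end on the same array. On LFD 6, the 5′ probe of Psmd2 read -1.49 and its 3′ probe -0.27. Psmd7, a minus-strand gene, read -1.38 at its 5′ probe (chr19:37456176-37456793), -0.68 at the middle probe (chr19:37452992-37453051), which stands for the gene above, and 0.19 at the 3′ probe (chr19:37452301-37452360). On LFD 2 the Psmd7 order was turned, from 0.28 at the 5′ probe to -0.33 at the 3′ probe. LFD 6 was lower at the 5′ probe in 5 of 6 members (Psmd1 was the exception), and LFD 2 was lower at the 3′ probe in 4 of 6 (not in Psmd1 and Psme4). Such counts were not particular to these 2 arrays. The 3′ probe was higher in 5 of 6 members on HFD 3 as well. It was higher in only 1 of 6 on LFD 1 and on HPD 2, against 2 of 6 on LFD 2.

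The comparison was repeated over the array. Of 2498 genes with such probe pairs up to 500000 bases apart, the 3′ probe was higher in 66.3% on LFD 6, with a median of 3′ minus 5′ of 0.33, and in 34.2% on LFD 2, with a median of -0.23. The other 16 arrays had medians from -0.16 (LFD 1) to 0.21 (HPD 7) and shares from 33.9% (LFD 1) to 72.1% (HPD 7). LFD 6 and LFD 2 were thus at the ends by the median but not by the share of genes. This comparison was added after the disagreement of probes was seen. RNA integrity values were not used here, and the part of the probe's position in any member's values beyond these 6 genes was not tested.

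**Figure D4:**
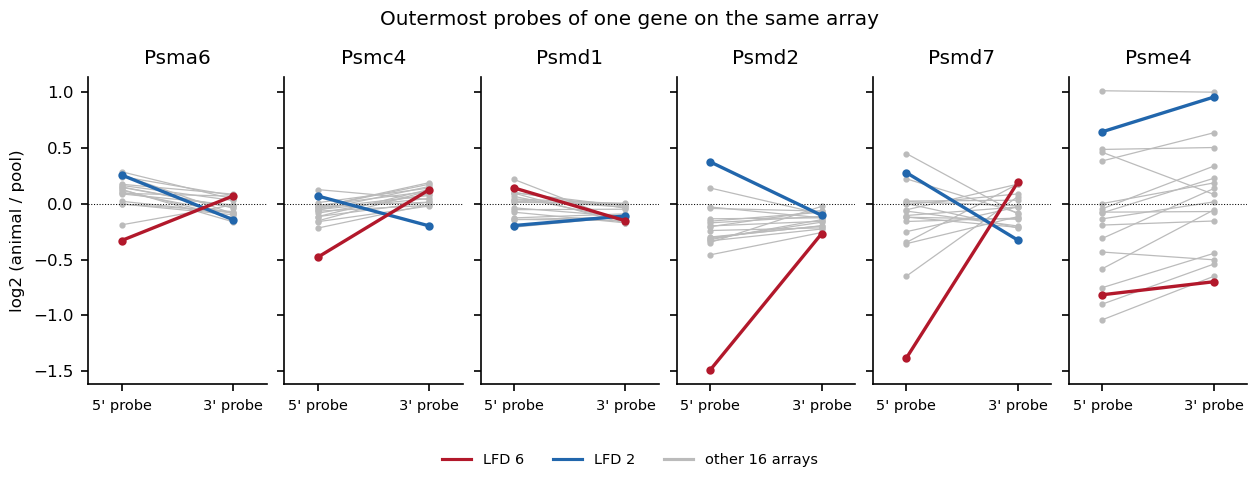
Log2 ratio of animal to pool (y axis) at the probe nearest the 5′ end and the probe nearest the 3′ end (x axis) of 6 members; each line is 1 array. The red line (LFD 6) climbs in Psmd2 and Psmd7 and the blue line (LFD 2) descends. Grey lines are the other 16 arrays, some of which are as steep, such as HPD 7 in Psmd7 (-0.65 to 0.06).

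The 7 members with several probes differed in how far their probes went together. Over 18 arrays, the second probe followed the brightest closely in Psmc6 (r = 0.93) and Psme4 (r = 0.92) and less in Psmd2 (r = 0.59). It did not follow it in Psmd1 (r = 0.07), Psma6 (r = -0.13), Psmc4 (r = -0.18) and Psmd7 (r = -0.52, with r = 0.86 for the third probe). These are descriptions over arrays that share a pool and LFD 2 and LFD 6. Averaging all probes of a gene left 0 of 41 members called between diets.

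The slide that held an array was tested next, and 1 member was called. With diet in the model, limma's F test over the 5 slides passed 44 of 21591 genes (0.204%) and 1 of 41 members (2.44%), Psme4, with an adjusted p of 0.0384. At an unadjusted p under 0.05 it passed 7 of 41 (17.1%) against 22.2% of all genes, a share below the background. Psme4 averaged 0.73 on slide 1, 0.24 on slide 2, 0.02 on slide 3, -0.53 on slide 4 and -0.43 on slide 5. All 4 arrays of slide 1 read 0.34 or more, and all 4 of slide 4 read -0.44 or less, in both diets present on each. Its second probe had r = 0.92 with the first, but read -0.04 on HFD 2 of slide 1.

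The call for Psme4 is not firm. It was kept in 5 of 18 fits that left out 1 array and lost in the other 13, with a smallest adjusted limma p over the members between 0.00727 and 0.158. Without HFD 5, Psmd3 and Psmd13 were called beside it, and 2163 of 21582 genes. It was lost too without LFD 2 and LFD 6. In the authors' deposited table, 13 of 41 members (31.7%) and 1808 of 17229 genes were called for slide. Psmd5 had the next smallest slide p, with means of 0.32, 0.12, -0.12, -0.28 and -0.24 on slides 1 to 5 and an adjusted p of 0.134. The median 3′ minus 5′ difference ran from -0.23 to -0.04 on the arrays of slide 1, -0.07 to 0.21 on slide 2, 0.03 to 0.09 on slide 3, 0.02 to 0.07 on slide 4 and 0.11 to 0.33 on slide 5. The part of this difference in the slide means of Psme4 was not tested. The labels do not say what else the arrays of a slide share.

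**Figure D5:**
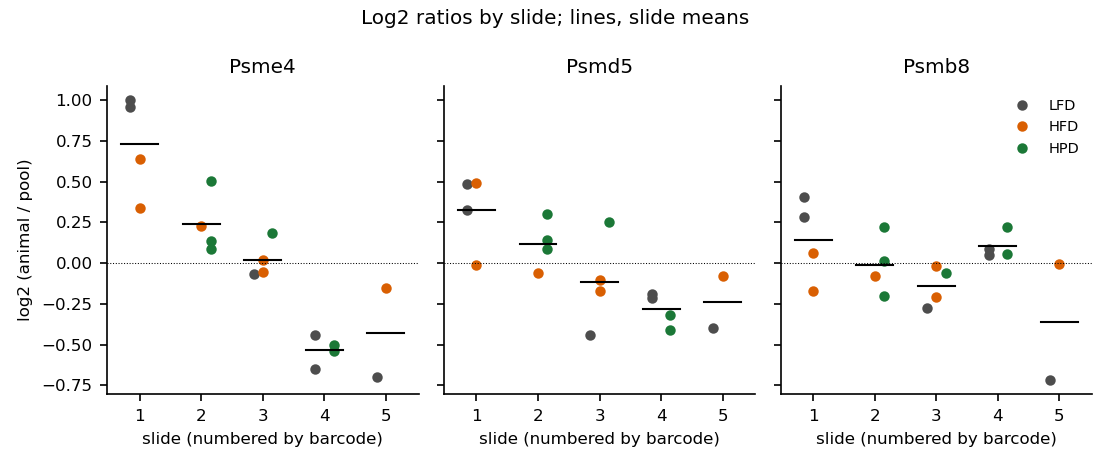
Log2 ratio of animal to pool (y axis) of Psme4, Psmd5 and Psmb8 by slide (x axis, numbered by barcode order); points are arrays coloured by diet, lines slide means. Psme4 falls from 0.73 on slide 1 to -0.53 on slide 4 in the diets present, and Psmb8 shows no such order.

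No other gene of the pathway was called. Of 21 measured partners and regulators of the proteasome, 0 had an unadjusted limma p under 0.05 in any diet comparison. They include Nfe2l1, at 0.12 ± 0.15 for HFD minus LFD and -0.09 ± 0.15 for HPD minus HFD, and Pomp, the core maturation factor, at -0.08 ± 0.13 and 0.17 ± 0.13. Of 23 genes of the ubiquitin system 0 passed likewise.

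In the 17 measured genes of peptide presentation, to which the immunoproteasome feeds, none was called and the median difference was -0.27 for HPD minus HFD and -0.16 for HPD minus LFD, with 13 and 14 of 17 lower. At an unadjusted limma p under 0.05 stood Ifng, interferon gamma, in HPD against HFD (-0.82 ± 0.32) and Tapbp, tapasin, in HFD against LFD (-0.26 ± 0.10). Against HFD, the inducible subunits Psmb8, Psmb9 and Psmb10 had differences of 0.06 to 0.12 in HPD, opposite in sign to Ifng, and neither side was called.

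Markers of blood cells were compared in the same way. Between HPD and LFD, 14 of 15 erythroid markers were lower (median -0.71), 9 of 9 platelet markers (median -0.72), 11 of 11 monocyte markers (median -0.40) and 10 of 10 natural killer cell markers (median -0.16), with none called. The T cell markers (7 higher and 7 lower, median 0.01), B cell markers (4 of 7 higher, median 0.07) and plasma cell markers (4 of 6 higher, median 0.07) lay near 0. Dendritic cell markers were lower in 3 of 3 (median -0.22) and neutrophil markers in 3 of 5 (median -0.16). Of all genes, 55% were higher in HPD than in LFD. Between HPD and HFD, the comparison in which Psmb5 did not overlap, monocyte markers were lower in 11 of 11 (median -0.34, 2 with an unadjusted limma p under 0.05). Natural killer cell markers were lower in 10 of 10 (median -0.35, 1 under 0.05). Erythroid markers were lower in 14 of 15 (median -0.58), platelet markers in 9 of 9 (median -0.37) and dendritic cell markers in 3 of 3 (median -0.25). T cell markers were higher in 10 of 14 (median 0.09) and neutrophil markers in 3 of 5 (median 0.09). B cell markers were higher in 4 of 7 (median 0.0031) and plasma cell markers in 4 of 6 (median 0.0024, 2 under 0.05). Of all genes, 54.5% were higher and 3.11% had an unadjusted limma p under 0.05. Between HFD and LFD, the medians were -0.01 for erythroid, -0.23 for platelet (9 of 9 lower), 0.07 for monocyte and 0.12 for natural killer cell markers. They were 0.21 for neutrophil markers (4 of 5 higher, 1 with an unadjusted limma p under 0.05) and 0.17 for dendritic cell markers. Plasma cell markers had 0.09, B cell markers 0.04 and T cell markers -0.03. In that comparison 50.2% of all genes were higher and 2.12% had an unadjusted limma p under 0.05. The mean of the erythroid list ran from -0.91 to 0.75 over LFD arrays, -1.28 to 0.57 over HFD and -1.26 to -0.18 over HPD, that of the platelet list from -0.53 to 1.24, -1.80 to 0.93 and -1.11 to -0.17, and that of the monocyte list from -0.58 to 0.49, -0.52 to 0.94 and -1.38 to 0.33. Their part in the proteasome values was not tested.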

How the data were processed

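The 18 two-colour Agilent arrays were read from the deposited scanner files. Per the file headers, Feature Extraction 10.5.1.1 subtracted background, removed spatial trends and normalised the dyes by LOWESS before giving processed signal intensity, and probe positions are on rn4. The values here are log2 ratios of processed Cy5 over processed Cy3 signal. Control and outlier spots were left out and spots of a probe were averaged. A probe needed the scanner's well-above-background mark for Cy5 on 5 or more of 18 arrays, and the brightest probe stood for its gene, which left 21591 genes. The log10 ratio that the software wrote, per the file headers, equalled these ratios after conversion to log2 in 100% of well-marked spots within 0.01 and served as a check.

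Diets were compared with limma 3.58.1 in R 4.3.3 (lmFit and eBayes on all 18 arrays, no covariates), with Benjamini-Hochberg adjustment over all genes and a threshold of 0.05. A moderated F test over slides had diet in the model. Gene pairs were tested with 100000 permutations. A deposited table of the authors' own log values was an alternative. Its columns all have a median of 8.40. Its values were taken to be log2, but their match to the scanner ratios (r = 0.888, slope 0.70 after centring) does not settle the log base. Differences in that table may thus be in other units than the scanner ratios. Its normalization and centring are not given in the sources used here. Other alternatives were the background correction (normexp with an offset of 50), scaling, centring, the filter on dim probes, averaged probes, slide and replicate blocks, and arrays left out. The code was tested on simulated data. The labels name separate animals, and replicate numbers follow the titles.

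The genes, gene lists and tests were chosen with earlier results of these data known. Genes named with values were the catalytic subunits and activators, the 3 smallest p-values per comparison and direction, the 5 smallest slide p-values, the 3 largest and smallest SDs, and any called gene. Other members named with values were chosen after these were seen. Promoters came from RefSeq on GRCr8.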

Additional observations from a re-analysis of the deposited data

Results flagged for a closer look

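In 75 groups of 6 animals (named genes in each diet), 4 had a single animal whose gap to its nearest neighbour was a larger share of the group's whole range than Dixon's 95% critical value for 6 samples. Chance flags about 1 in 20 groups. Psmd3 read -1.55 in LFD 6, with the next animal at -0.18. Psmd7 read 0.15 in HFD 1, with the next at -0.04. Psme3 read 0.20 in LFD 5, with the next at 0.04. Psmd5 read 0.49 in HFD 2, with the next at -0.01. Of the 4, 1 lies in LFD 6 and 0 in LFD 2.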

How the results depend on the processing

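Between diets, 0 of 41 proteasome genes were called by limma under every alternative run. Over the named genes and all alternatives, 2400 values gave 0 calls, 184 changes of sign, 44 shifts over 1 standard error and 12 unadjusted p-values under 0.05. The members' median differences moved by more than the spread of the arrays' member medians within diets (SD 0.045) in the authors' deposited table, to -0.10 (HFD minus LFD), 0.081 (HPD minus LFD) and 0.16 (HPD minus HFD), and the cause was not tested. From the scanner files, single arrays left out apart, HFD minus LFD lay between -0.043 and 0.0016, and its sign turned with slide as a fixed block. HPD minus LFD lay between 0.0041 (without slide 1) and 0.055, and HPD minus HFD between 0.019 (arrays centred on their median) and 0.047. With each array left out in turn, the 3 ranges were -0.025 to 0.0037, 0.016 to 0.044 and 0.029 to 0.056. The sign of HFD minus LFD turned there too, without HFD 3. The count of 1 member called for slide (44 of 21591 genes) became 2 with normexp on all spots (516 genes), 0 without a filter on dim probes (7 genes), 0 with all probes of a gene averaged (0 genes), 13 in the authors' deposited table (1808 genes) and 0 without LFD 2 and LFD 6 (16 genes), an alternative chosen after seeing the data. It ranged from 0 to 3 when each array was left out in turn (0 to 2163 genes). No pairing of the animals by replicate number was evident. The 16 same-numbered pairs had correlations of their deviations from -0.31 to 0.22, with 5 above 0.1. Pairs with different numbers were not set beside them. With the replicate number as a block 0 members were called and the medians were -0.02, 0.04 and 0.05. With 6 animals a diet, the median standard error of a member's difference was 0.10, against 0.20 for all genes.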
